A study of Homo sapiens with 16 samples.

Results

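SCaBER is an established human bladder carcinoma line of the basal type. Its response to small interfering RNAs (siRNAs) against FOXA1 was measured in 8 of the 16 libraries of the series, chosen as all SCaBER libraries. Of these, 4 were siFOXA1 libraries, with 2 each of the siRNAs siFOXA1.1 and siFOXA1.2. The other 4 were siControl libraries, again with 2 each of siControl.1 and siControl.2, and the other 8 libraries of the series carry the same 4 siRNAs in the luminal line RT112. SCaBER was grown in DMEM with serum, and each culture received 10 nM of 1 siRNA per the labels, with Lipofectamine RNAiMAX. The study's own methods text writes the amount as 10 ng. The study describes the knock-down as short-term. The 2 libraries of a siRNA are labelled as experiment batches 1 and 2. Whether they came from separate cultures is not stated beyond that, so p-values measure the spread between these libraries.

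FOXA1 is a forkhead transcription factor of the class called pioneer factors, which can bind their sites in closed chromatin and open them for other factors. In urothelium it is known for its part in the luminal, differentiated programme, together with GATA3 and PPARG. Basal bladder tumours usually express little of it and instead express basal keratins, CD44 and the basal factor TP63. A siRNA guides the RNA-induced silencing complex to a matching transcript, and it can also lower other transcripts that match its short seed or, as double-stranded RNA, set off an interferon response. For that reason knock-down studies use more than 1 siRNA per target and ask which genes move with each of them.

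The line was checked against marker genes. The basal genes KRT5, KRT6A, KRT14, KRT17, CDH3, CD44, TP63 and EGFR were all detected in every library, with TP63 the lowest at 13.7 to 38.9 normalised CPM (CPM, each library's counts scaled to a common total, here after TMM correction). Of 8 luminal genes, UPK1A, UPK3A and KRT20 had 0 counts in every library. ERBB3 (30.3 to 64.4 normalised CPM), PPARG (12.5 to 28.9), GATA3 (7.83 to 18.0) and the uroplakin gene UPK2 (2.65 to 17.4) were detected in every library. FGFR3 ranged from 0 to 3.51. The summed level of the 8 was 71.2 to 116 normalised CPM in siControl and 68.9 to 112 in siFOXA1. The immune genes PTPRC, CD3E and LYZ and the fibroblast genes COL3A1 and DCN also had 0 counts throughout. The fibroblast genes COL1A1 and LUM were counted in every library, at 10 to 141 and 22 to 181 counts, and the immune genes CD14 and CD68 at 0 to 25 and 0 to 9. Library totals ran from 4528513 to 6914951 counts, and mitochondrial genes took 5.33% to 6.76% of them. Over the 500 most variable genes, the first principal component (29.2% of the variance) set the siFOXA1.1 libraries apart from the other 6. Both siFOXA1.2 libraries lay nearest to a siControl library, and siControl.1 replicate 2 stood alone on the second component (17.2%).

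The targeted gene was near the limit of detection before any knock-down. FOXA1 (ENSG00000129514; GRCh38.p14 chr14:37589552-37595249) had 3 and 4 counts in the siControl.1 libraries, 15 and 9 in siControl.2, 0 and 3 in siFOXA1.1, and 0 and 6 in siFOXA1.2. A count of 0 allows up to 0.594 normalised CPM in siFOXA1.1 replicate 1 and 0.468 in siFOXA1.2 replicate 1, taking 3 counts as the floor. The groups overlapped, because siFOXA1.2 replicate 2 (0.955 normalised CPM) lay above both siControl.1 libraries (0.500 and 0.610). The mean was 1.38 ± 0.976 normalised CPM in siControl and 0.346 ± 0.453 in siFOXA1 (SD, n = 4 each), a difference that did not pass a two-sided exact permutation test (p = 0.114; 70 splits, smallest possible p 0.0286). FOXA1 failed the filter on low counts. Without that filter, edgeR gave a log2 fold change of -1.92 ± 1.82 (SE) with an adjusted p of 0.680. At this depth the counts therefore check the labels only weakly.

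The first comparison set all siFOXA1 libraries against all siControl libraries. Of 11902 genes tested with edgeR's quasi-likelihood test, 1 passed an adjusted p of 0.05 (0.0084% of those tested). It was PABPC4, a cytoplasmic poly(A)-binding protein of messenger RNA stability and translation, with a log2 fold change of -1.37 (SE 0.19) at an adjusted p of 0.0292. With experiment batch as a block, no gene passed, PABPC4 included, against 1031 at an unadjusted p under 0.05. Without the block 1059 did. DESeq2, the tool named in the methods of the study, called 36 genes on the same split, 27 higher and 9 lower.

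A fit with 1 mean for each of the 4 siRNAs leaves the difference between the siRNAs out of the error. In it the mean of both siFOXA1 siRNAs against both controls had 134 genes higher (1.13%) and 137 lower (1.15%), and 487 in all with the batch as a block. The siRNAs contributed very unequally. For siFOXA1.1, 532 genes were higher (4.47%) and 570 lower (4.79%). For siFOXA1.2, 5 genes passed (0.042%), against 634 at an unadjusted p under 0.05, and DESeq2 called 38. The siRNAs themselves differed from each other for 577 genes (4.85%), 244 higher and 333 lower under siFOXA1.1. The controls differed from each other as well, for 8 genes, or 35 with the block, and 6.64% of genes had an unadjusted p under 0.05 between them. INHBA, a subunit of activin A, differed most of the 8, at 339.8 and 504 normalised CPM in siControl.1 against 70.8 and 109 in siControl.2.

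All 5 genes that passed under siFOXA1.2 also passed under siFOXA1.1, in the same direction. CALU, CLDN1 and TINAGL1 rose with both, and PABPC4 and HMGN3 fell with both.

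**Figure D1:**
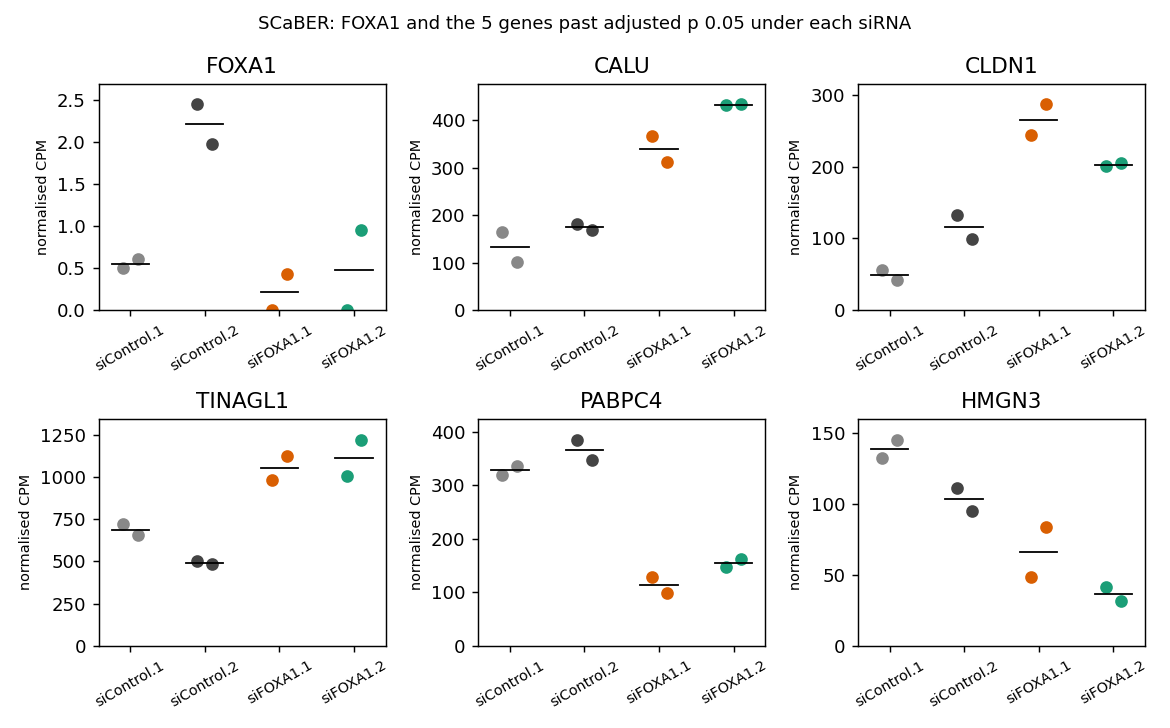
Normalised CPM (vertical axes, from 0) of FOXA1 and of the 5 genes past an adjusted p of 0.05 under each siRNA, by siRNA, in SCaBER. Points are the 2 libraries of a siRNA and lines their mean. FOXA1 overlaps between the groups at levels under 3, whereas the other 5 genes do not overlap, and CLDN1 and TINAGL1 also differ between the 2 control siRNAs at an unadjusted p under 0.05.

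CALU (GRCh38.p14 chr7:128739359-128773400) encodes calumenin, a calcium-binding protein of the endoplasmic reticulum. It measured 164 and 102 normalised CPM in siControl.1, 183 and 169 in siControl.2, 366 and 313 in siFOXA1.1, and 433 and 434 in siFOXA1.2. Every siFOXA1 library lay above every siControl library, with log2 fold changes of 1.15 (SE 0.19, adjusted p = 0.00173) for siFOXA1.1 and 1.50 (SE 0.19, adjusted p = 0.0144) for siFOXA1.2. CLDN1 (chr3:190305707-190322446) encodes claudin-1, a sealing protein of epithelial tight junctions. Its values were 55.9 and 42.2 in siControl.1, 133 and 99.8 in siControl.2, 244 and 287 in siFOXA1.1, and 201 and 204 in siFOXA1.2. The groups were separate, but the controls also differed from each other (log2 difference -1.25 for siControl.1 minus siControl.2), with siControl.1 the lower of them. Against both controls it was 1.81 (SE 0.19, adjusted p = 4.42e-05) for siFOXA1.1 and 1.43 (SE 0.19, adjusted p = 0.0146) for siFOXA1.2. TINAGL1 (chr1:31576515-31587686), which encodes a secreted matrix protein related to the tubulointerstitial nephritis antigen, measured 719 and 654 in siControl.1, 499 and 482 in siControl.2, 984 and 1123 in siFOXA1.1, and 1009 and 1221 in siFOXA1.2. It was the most abundant of the 5, and its rise was 0.86 (SE 0.15, adjusted p = 0.00248) and 0.94 (SE 0.15, adjusted p = 0.0429).

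PABPC4 (chr1:39560816-39576790) measured 320.1 and 337 normalised CPM in siControl.1, 386 and 348 in siControl.2, 129 and 99.3 in siFOXA1.1, and 148 and 161 in siFOXA1.2. The controls were close to each other, and the siFOXA1 mean was 38.7% of theirs. The change under siFOXA1.1 was -1.60 (log2, SE 0.19, adjusted p = 0.000144) and under siFOXA1.2 -1.17 (SE 0.18, adjusted p = 0.0429). HMGN3 (chr6:79201245-79234682), a nucleosome-binding protein of the high mobility group, went from 133 and 146 in siControl.1 and 112 and 95.4 in siControl.2 to 48.9 and 83.7 in siFOXA1.1 and 41.2 and 31.8 in siFOXA1.2. Its log2 fold change was -1.72 under siFOXA1.2 (SE 0.26, adjusted p = 0.0425) and -0.85 under siFOXA1.1 (SE 0.25, adjusted p = 0.0453), although the difference between the siRNAs did not pass (adjusted p = 0.103). The 5 calls under siFOXA1.2 rest on few libraries. Leaving out either siControl.2 library or either siFOXA1.2 library brought them to 0, leaving out siControl.1 replicate 1 or 2 to 2 or 1, and leaving out siFOXA1.1 replicate 1 or 2 raised them to 21 or 19.

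To describe genes beyond these 5, a gene was counted as moved the same way when each siFOXA1 siRNA had an unadjusted p under 0.05 against both controls, in 1 direction, and all 4 siFOXA1 libraries lay beyond all 4 siControl libraries. This held for 156 genes, 110 higher (0.924% of those tested) and 46 lower (0.386%). For comparison, 5.19% of all genes had groups of 4 that did not overlap. Both siRNAs were set against the same 4 control libraries, so a chance deviation of those libraries enters both, and the values below describe the genes without being a further test of them. With disjoint controls, siFOXA1.1 against siControl.1 and siFOXA1.2 against siControl.2, 176 genes had an unadjusted p under 0.05 in both. Of those, 112 went in the same direction (81 higher, 31 lower) and 64 in opposite directions. With the controls exchanged, 95 of 212 went in the same direction and 117 in opposite directions. Which control was paired with which siRNA therefore changed how many genes went in the same direction.

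**Figure D2:**
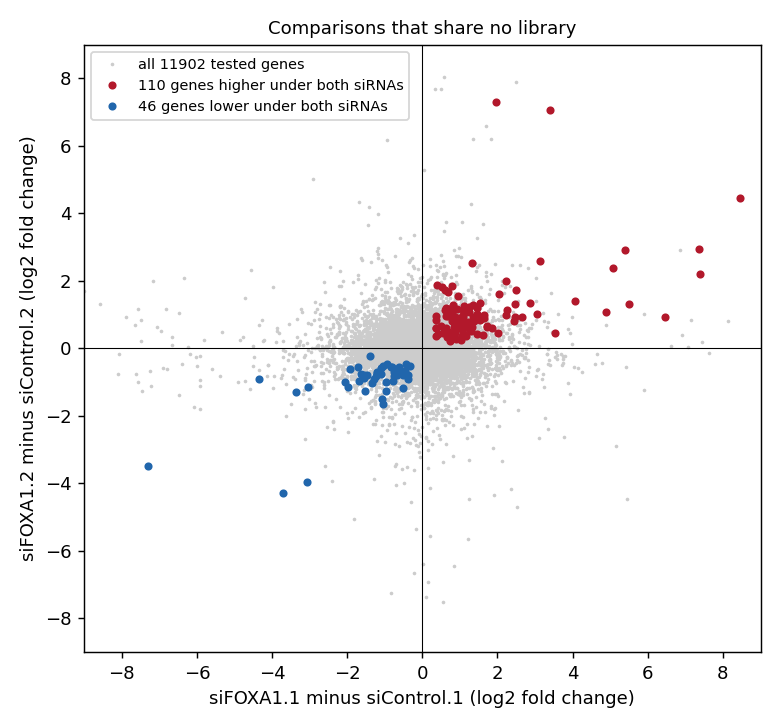
Log2 fold change of siFOXA1.1 against siControl.1 (horizontal axis) and of siFOXA1.2 against siControl.2 (vertical axis) in SCaBER, comparisons that share no library. Grey points are the 11902 genes tested, with 1 beyond the axes, red points the 110 genes higher and blue points the 46 genes lower under both siRNAs. The coloured genes lie in the upper right and lower left by the rule that chose them, and the grey cloud is wider along the siFOXA1.1 axis.

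Most of the 156 moved further with siFOXA1.1, which had the larger log2 fold change for 125 of them. The median over the higher genes was 1.11 under siFOXA1.1 and 0.84 under siFOXA1.2, and over the lower genes -1.20 and -0.78, against 0.013 and 0.0066 over all genes tested. An adjusted p under 0.05 in the mean of both siRNAs was reached by 48 of the higher and 19 of the lower genes. Over all genes tested it was reached by 1.13% (higher) and 1.15% (lower). The rule chose the 156 on the same libraries and contrasts, so the larger share among them is built in. The filter on low counts asks for 4 libraries above its level, and 19 of the higher genes reached it with fewer than 4 siControl libraries, 6 of the 48 among them, so for these the filter itself favoured a higher level in siFOXA1. Likewise 5 of the lower genes had fewer than 4 siFOXA1 libraries above it, with 1 of the 19 among them. The siRNAs differed from each other, at an adjusted p under 0.05, for 5 of the 156: HSH2D, CDKN1A, RRBP1, ID1 and ANLN. Between the 2 controls, 19 of the 110 higher genes and 2 of the 46 lower genes had an unadjusted p under 0.05, that is 17.3% and 4.35% against the 6.64% of all genes. The genes were more abundant than most, with a median of 254 counts per library against 140.1 over all genes tested, and 9 had a mean under 20 counts. Just inside the rule were ABCA1 and PYM1 (larger p of the 2 siRNAs 0.0496 and 0.0494), and just outside APPBP2 and SSX2IP (0.0501 for each). ABCA1 is 1 of the 19 higher genes with fewer than 4 siControl libraries above the filter's level, so its p only places it at the rule's edge.

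**Figure D3:**
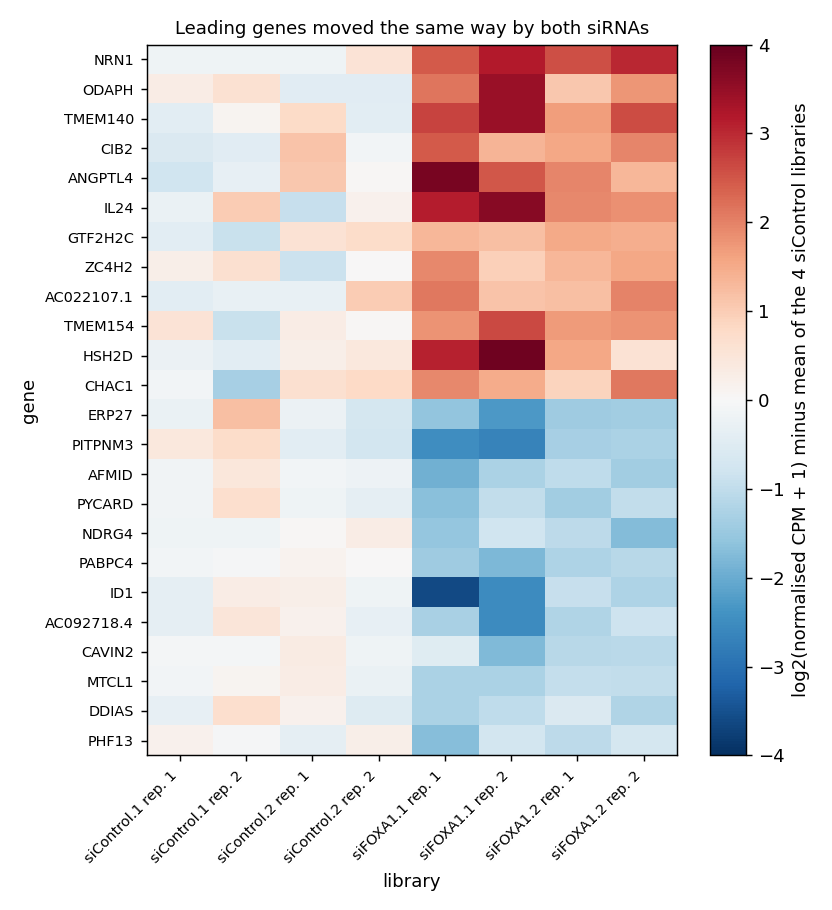
Level in each of the 8 SCaBER libraries (columns) of the 12 higher and 12 lower genes with the largest change under the siRNA that moved them less (rows), as log2(normalised CPM + 1) minus the mean of the 4 siControl libraries. Every row shifts between the 4 siControl and the 4 siFOXA1 columns by the rule that chose the genes. HSH2D and ID1 are deeper in colour in the siFOXA1.1 columns.

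Of the 12 leading higher genes, NRN1, TMEM140, IL24, ANGPTL4, HSH2D, ODAPH, CIB2, GTF2H2C and ZC4H2 passed the filter through their siFOXA1 libraries. No test against siControl is therefore given for them. NRN1, which encodes the small membrane-anchored protein neuritin, went from 0, 0, 0 and 3 counts in the siControl libraries to 26 and 65 in siFOXA1.1 and 37 and 52 in siFOXA1.2. Summed over libraries the ratio was 56.4 (95% exact counting interval 19.0 to 276), which covers counting error alone and describes these libraries. TMEM140, a transmembrane protein gene, measured 0 and 0.457 normalised CPM in siControl.1, 1.30 and 0 in siControl.2, 7.72 and 13.9 in siFOXA1.1, and 3.28 and 7.32 in siFOXA1.2. These are low levels, with 0, 3, 8 and 0 counts in the controls. IL24, a cytokine of the interleukin-10 family, measured 2.33 and 7.17 in siControl.1 and 1.14 and 3.51 in siControl.2. It measured 34.7 and 49.3 in siFOXA1.1 and 14.4 and 13.2 in siFOXA1.2, higher in all 4. ANGPTL4, a secreted inhibitor of lipoprotein lipase, stood at 0.167 to 3.26 in siControl, at 27.3 and 10.4 in siFOXA1.1 and at 6.87 and 4.14 in siFOXA1.2. The lowest siFOXA1.2 library was close to the highest control. CHAC1, a glutathione-degrading enzyme induced by the integrated stress response, measured 9.34 and 3.35 in siControl.1 and 16.1 and 18.2 in siControl.2. These controls differed by -1.44 on the log2 scale (edgeR, unadjusted p = 0.0151). It measured 40.8 and 29.9 in siFOXA1.1, and 19.4 and 46.8 in siFOXA1.2 (log2 fold change 1.71, SE 0.36, adjusted p = 0.024).

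HSH2D, an adaptor protein of lymphocyte signalling, was the clearest case of unequal size among them. It went from 0.762 to 2.19 normalised CPM in siControl to 18.8 and 34.2 in siFOXA1.1, but to 5.93 and 2.55 in siFOXA1.2, and the difference between the siRNAs was 2.64 on the log2 scale (SE 0.67, adjusted p = 0.0357). TMEM154, another transmembrane protein gene, measured 2.29 to 7.84 in siControl and 18.9 to 36.9 in siFOXA1, highest in siFOXA1.1 replicate 2, and rose by 2.11 (SE 0.41, adjusted p = 0.0154). ODAPH had 4, 7, 0 and 0 counts in the siControl libraries. CIB2, GTF2H2C and ZC4H2 had at most 21, 16 and 21 counts in a siControl library, and at most 50, 38 and 47 in a siFOXA1 library. AC022107.1 did not pass in the mean of both siRNAs (adjusted p = 0.0759). GTF2H2C has near-identical copies in the genome, so its count is uncertain.

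Of the 12 leading lower genes, ID1, an inhibitor of helix-loop-helix factors and a target of BMP signalling, measured 91.5 and 144 normalised CPM in siControl.1, 138 and 103 in siControl.2, 8.71 and 19.4 in siFOXA1.1, and 60.9 and 48.8 in siFOXA1.2. All 4 siFOXA1 libraries were below the controls, and siFOXA1.1 went lower than siFOXA1.2 by 1.94 (SE 0.36, adjusted p = 0.00623). The log2 fold change for the mean of both was -2.09 (SE 0.25, adjusted p = 0.00125). PYCARD, the adaptor of the inflammasome, measured 25.2 and 44.1 in siControl.1, 24.1 and 21.5 in siControl.2, 7.92 and 13.4 in siFOXA1.1, and 9.84 and 13.5 in siFOXA1.2. The 2 siRNAs gave similar values, and the log2 fold change for their mean was -1.33 (SE 0.31, adjusted p = 0.0383). The microtubule crosslinker MTCL1 passed at -1.19 (SE 0.25, adjusted p = 0.0261), as did the unnamed transcript AC092718.4 at -1.54 (SE 0.35, adjusted p = 0.0341). PITPNM3, a phosphatidylinositol transfer protein, passed the filter through its siControl libraries and measured 5.04 to 15.7 normalised CPM in siControl, 0.792 and 0.572 in siFOXA1.1, and 2.97 and 3.18 in siFOXA1.2. ERP27 also passed the filter through its siControl libraries, and measured 3.73 to 16.8 in siControl and 0.572 to 1.91 in siFOXA1. AFMID, NDRG4, CAVIN2, DDIAS and PHF13 had adjusted p from 0.0658 to 0.124.

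Gene lists give the wider picture, and they divide into those where 1 siRNA moved many members and those where a few members moved with both. Among all genes tested, 4.47% rose and 4.79% fell under siFOXA1.1, and the 5 calls under siFOXA1.2 were 0.042%. Of 39 interferon-induced antiviral genes tested, 37 rose under siFOXA1.1 (median log2 fold change of the list 1.96) and none passed under siFOXA1.2 (median -0.22). None of the 39 was among the 156, which are 0.924% (higher) and 0.386% (lower) of all genes. At those shares a list of this size can hold none. IFI6, an antiviral membrane protein, measured 108 to 226 normalised CPM in siControl, 2013 and 2025 in siFOXA1.1, and 118 and 89.2 in siFOXA1.2. The siFOXA1.2 libraries thus lay within or below the range of the controls. MX2, an interferon-induced GTPase that blocks viral capsids, rose by 4.42 under siFOXA1.1 (adjusted p = 4.23e-07) and measured 3.75 and 2.86 in siFOXA1.2 against 3.75 to 13.7 in siControl. The difference between the siRNAs passed for 36 of the 39. Of 16 interferon signalling genes, 3 rose under siFOXA1.1, against 4.47% of all genes, and none passed under siFOXA1.2, where 0.042% of all genes did.

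**Figure D4:**
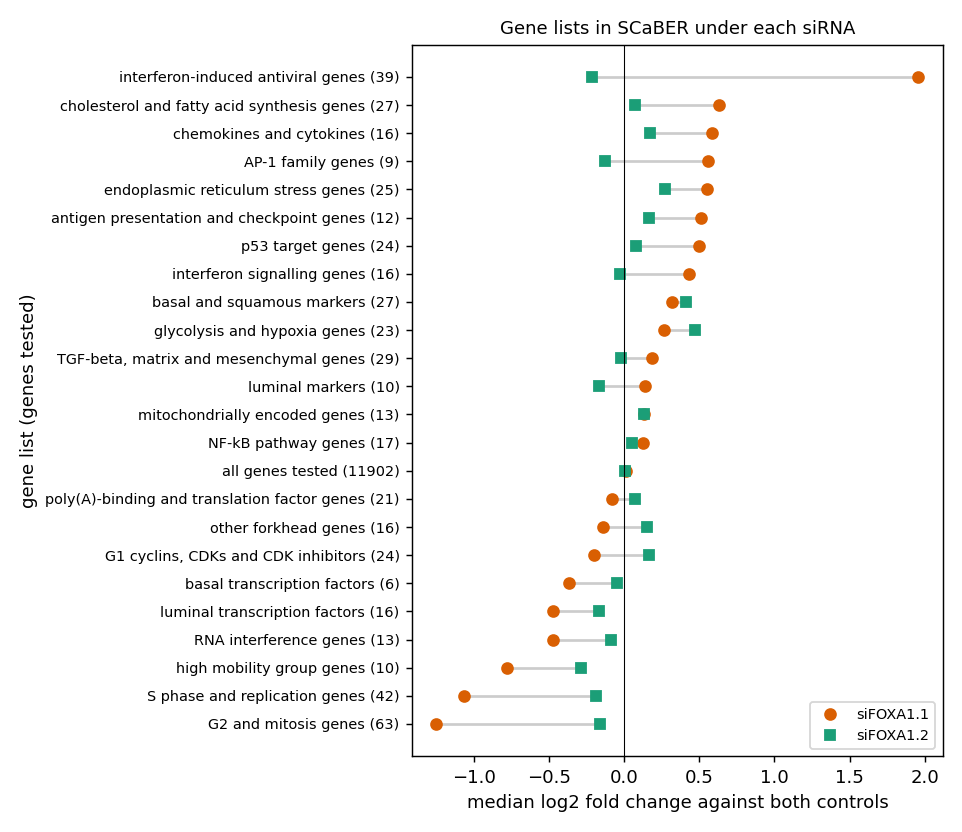
Median log2 fold change against both controls of each gene list other than the cell type marker lists, and of all genes tested, in SCaBER (horizontal axis), for siFOXA1.1 (circles) and siFOXA1.2 (squares), with the number of genes tested in brackets. Interferon-induced antiviral genes lie at 1.96 and -0.22 and G2 and mitosis genes at -1.25 and -0.16, and the siFOXA1.2 medians of the lists plotted lie within 0.5 of 0.

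Cell cycle genes fell with siFOXA1.1 and in part with both. Of 63 G2 and mitosis genes, 50 fell under siFOXA1.1, against 4.79% of all genes, and none passed under siFOXA1.2. The medians were -1.25 and -0.16, and the difference between the siRNAs passed for 36, against 4.85% of all genes. Among the 156, whose lower genes are 0.386% of all genes, were 4 of them, all lower. These were CDC25B, the phosphatase that activates CDK1, BUB1B, a kinase-like protein of the spindle checkpoint, ANLN, an actin-binding protein of the cytokinetic ring, and CKS2, a small partner of CDKs. CDC25B measured 229 and 230.2 in siControl.1, 209.7 and 242 in siControl.2, 114 and 87.0 in siFOXA1.1, and 132 and 146 in siFOXA1.2, and its log2 fold change for the mean was -0.95 (SE 0.15, adjusted p = 0.00591). MKI67, the proliferation antigen, is the contrast. It measured 282 to 412 in siControl, 72.3 and 65.9 in siFOXA1.1, and 419.9 and 349 in siFOXA1.2, so only the siFOXA1.1 libraries lay below the controls. Of 42 S phase genes, 26 fell under siFOXA1.1, against 4.79% of all genes, and none passed under siFOXA1.2 (medians -1.06 and -0.18). ORC6, a subunit of the origin recognition complex, was the 1 among the 156.

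CDKN1A encodes p21, the inhibitor of cyclin-dependent kinases that p53 induces. It measured 93.4 and 52.4 normalised CPM in siControl.1, 72.4 and 88.6 in siControl.2, 375 and 312 in siFOXA1.1, and 163 and 155 in siFOXA1.2. It was higher in all 4 siFOXA1 libraries and more so in siFOXA1.1 than in siFOXA1.2 (log2 difference 1.11, SE 0.26, adjusted p = 0.0236), and it rose by 1.61 for the mean of both (SE 0.19, adjusted p = 0.0011). Of 24 p53 target genes, 3 rose under siFOXA1.1, against 4.47% of all genes, and none passed under siFOXA1.2. BBC3 and SESN2 of this list were among the 156, whose higher genes are 0.924% of all genes. BBC3, the apoptosis activator PUMA, measured 35.3 and 22.1 in siControl.1, 15.7 and 18.2 in siControl.2, 65.3 and 101 in siFOXA1.1, and 44.2 and 41.04 in siFOXA1.2. SESN2, a stress-induced inhibitor of mTORC1, measured 31.7 to 62.3 in siControl, 128 and 111 in siFOXA1.1, and 70.0 and 99.7 in siFOXA1.2. Both were separate between the groups, as the rule requires, with rises of 1.43 (SE 0.24, adjusted p = 0.00683) and 1.18 (SE 0.20, adjusted p = 0.00728). The controls of BBC3 differed by 0.76 on the log2 scale, siControl.1 the higher (edgeR, unadjusted p = 0.0398).

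The high mobility group list, chromatin proteins that bend or loosen DNA, had 10 genes tested. Under siFOXA1.1, 6 fell, against 4.79% of all genes. Under siFOXA1.2, where 0.042% of all genes passed, 1 fell, which was HMGN3. HMGB1, which also acts as an alarm signal outside cells, measured 491 and 565 in siControl.1, 472 and 521 in siControl.2, 238 and 209.8 in siFOXA1.1, and 268 and 293 in siFOXA1.2. The siFOXA1 mean was 49.3% of the siControl mean, and the log2 fold change for the mean of both siRNAs was -1.03 (SE 0.13, adjusted p = 0.00165). HMGB1 has many processed pseudogenes, so part of its count is uncertain. Of 21 poly(A)-binding and translation factor genes, PABPC4 fell with both siRNAs, while G3BP2, an RNA-binding protein of stress granules, was higher with both. G3BP2 measured 71.7 to 85.6 in siControl, 167 and 152 in siFOXA1.1, and 131 and 127 in siFOXA1.2 (0.87, SE 0.15, adjusted p = 0.00911).

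Of 27 basal and squamous markers, 6 rose under siFOXA1.1, against 4.47% of all genes, and none passed under siFOXA1.2, with medians of 0.32 and 0.41. The controls differed from each other on this list by a median of 0.37 (siControl.1 minus siControl.2), a gap of similar size. DSG3, a desmosomal cadherin of squamous epithelium, was among the 156, at 16.5 and 14.2 normalised CPM in siControl.1 and 9.79 and 7.02 in siControl.2. It measured 23.6 and 25.9 in siFOXA1.1, and 25.6 and 28.2 in siFOXA1.2. All 4 siFOXA1 libraries lay above the controls (log2 fold change for the mean 1.18, SE 0.28, adjusted p = 0.0416). None of the 16 luminal transcription factors tested, the 10 luminal markers, the 6 basal transcription factors, the 16 other forkhead genes and the 9 AP-1 genes was among the 156. Of all genes the 156 are 0.924% (higher) and 0.386% (lower). At those shares lists this small can hold none, so this does not show that such genes were spared. For luminal factors, 2 of 16 fell under siFOXA1.1, against 4.79% of all genes, and none passed under siFOXA1.2. A count of 0 under siFOXA1.2 does not show that genes did not change, since that siRNA had 5 calls in all.

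Single members of other lists were among the 156. KDM3A, a histone H3 lysine 9 demethylase induced by hypoxia, measured 29.8 and 37.96 in siControl.1, 47.3 and 36.4 in siControl.2, 77.6 and 83.0 in siFOXA1.1, and 102 and 73.5 in siFOXA1.2, and rose by 1.16 (SE 0.20, adjusted p = 0.00869). SCD, the stearoyl-CoA desaturase, was also among the 156 but did not pass in the mean of both siRNAs (0.59, SE 0.16, adjusted p = 0.0708). Of the 27 cholesterol and fatty acid genes, 13 rose and 1 fell under siFOXA1.1, against 4.47% and 4.79% of all genes. None of them passed under siFOXA1.2. SOD2, the mitochondrial superoxide dismutase and an NF-kB target, rose by 1.11 (SE 0.22, adjusted p = 0.0185). Its controls differed by 0.69 on the log2 scale, siControl.1 the higher (edgeR, unadjusted p = 0.0449). MMP14, a membrane-bound matrix metalloproteinase, rose by 0.87 (SE 0.21, adjusted p = 0.0407). No member of the antigen presentation, RNA interference, interferon signalling or mitochondrially encoded lists was among the 156. These lists had 12, 13, 16 and 13 genes tested, and the 156 are 0.924% (higher) and 0.386% (lower) of all genes. At those shares lists this small can hold none, so the absence is no result about them.

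Promoter sequences were read for the genes that moved with both siRNAs, from RefSeq on GRCh38.p14, covering 250 bases before to 50 after the annotated start. A promoter was matched by symbol or synonym for 92 of the 110 higher genes, 39 of the 46 lower genes and 9121 of the genes tested. The forkhead letters TGTTTAC or TGTTTGC, on either strand, stood in 2 of the 92 higher promoters (2.17%) and 0 of the 39 lower ones, against 4.59% of all 9121. The AP-1 letters TGANTCA stood in 4.35% and 2.56%, against 4.63% of all, and CCAAT in 32.6% and 48.7%, against 37.3% of all. The 2 promoters with forkhead letters were those of TMEM140 and ZFP37, a zinc finger gene at 0 to 1.54 normalised CPM in siControl and 2.50 to 9.72 in siFOXA1, named here for that match. They are shown with the forkhead letters in capitals.
TMEM140, chr7:135147822-135148121, plus strand: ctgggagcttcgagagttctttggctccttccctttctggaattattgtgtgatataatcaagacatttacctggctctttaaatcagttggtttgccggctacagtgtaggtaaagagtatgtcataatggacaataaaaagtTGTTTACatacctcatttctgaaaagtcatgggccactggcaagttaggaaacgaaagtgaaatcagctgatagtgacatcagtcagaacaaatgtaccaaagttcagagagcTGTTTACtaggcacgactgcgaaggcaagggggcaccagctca
ZFP37, chr9:113056675-113056974, minus strand: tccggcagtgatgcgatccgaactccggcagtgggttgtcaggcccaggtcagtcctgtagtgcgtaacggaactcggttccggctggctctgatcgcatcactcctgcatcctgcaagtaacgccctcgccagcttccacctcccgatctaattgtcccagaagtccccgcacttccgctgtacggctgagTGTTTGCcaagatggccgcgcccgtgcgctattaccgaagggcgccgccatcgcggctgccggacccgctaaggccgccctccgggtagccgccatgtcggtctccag
In TMEM140 the letters begin 106 bases before the start and again at base 8 after it, and in ZFP37 they begin 58 bases before it. Such a match is a description of these letters and not a binding site.

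For 4 of the 5 genes past the adjusted threshold under each siRNA the promoter is shown, with CCAAT or its reverse ATTGG in capitals. None of the 4 held the forkhead or AP-1 letters in this window.
CALU, chr7:128739109-128739408, plus strand: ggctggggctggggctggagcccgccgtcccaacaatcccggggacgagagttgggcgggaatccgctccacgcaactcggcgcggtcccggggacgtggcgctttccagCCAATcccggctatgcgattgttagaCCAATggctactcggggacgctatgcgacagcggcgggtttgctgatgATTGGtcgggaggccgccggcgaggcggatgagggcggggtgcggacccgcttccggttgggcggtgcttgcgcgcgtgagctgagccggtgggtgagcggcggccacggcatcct
CLDN1, chr3:190322397-190322696, minus strand: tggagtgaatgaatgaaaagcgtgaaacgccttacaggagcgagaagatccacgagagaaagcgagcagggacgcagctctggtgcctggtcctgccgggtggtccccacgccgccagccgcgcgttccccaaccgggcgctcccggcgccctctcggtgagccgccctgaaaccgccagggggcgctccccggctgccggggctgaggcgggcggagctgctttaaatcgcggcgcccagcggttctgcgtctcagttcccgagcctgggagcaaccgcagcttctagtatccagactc
TINAGL1, chr1:31576265-31576564, plus strand: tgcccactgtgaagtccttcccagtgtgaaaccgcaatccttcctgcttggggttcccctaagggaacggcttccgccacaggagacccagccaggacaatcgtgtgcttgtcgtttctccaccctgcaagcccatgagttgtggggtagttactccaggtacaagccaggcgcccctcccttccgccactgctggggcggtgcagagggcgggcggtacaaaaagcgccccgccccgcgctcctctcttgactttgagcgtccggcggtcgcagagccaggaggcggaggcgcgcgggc
HMGN3, chr6:79234633-79234932, minus strand: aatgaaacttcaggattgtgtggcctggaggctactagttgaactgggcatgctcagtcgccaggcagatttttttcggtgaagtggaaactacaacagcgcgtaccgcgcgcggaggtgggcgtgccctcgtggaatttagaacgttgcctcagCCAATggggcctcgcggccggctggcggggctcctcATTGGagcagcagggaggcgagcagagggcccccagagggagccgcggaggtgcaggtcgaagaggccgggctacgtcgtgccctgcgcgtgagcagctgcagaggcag
CALU carries 3 such matches and HMGN3 2, while CLDN1 and TINAGL1 carry none.

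RT112 libraries took no part in choosing the 156 genes, so the genes were looked up there. The same siFOXA1 siRNAs were used in both lines, so a response to a siRNA that does not pass through FOXA1 could appear in both, and the 2 cannot be told apart by this look-up. Of the 110 higher genes, 94 were tested in RT112. Under siFOXA1.1, 45 were higher there (47.9%), against 16.7% of the 10685 genes tested in both lines, and 2 were lower. Under siFOXA1.2, 10 were higher (10.6%) against 1.12%, and none was lower. Of the 46 lower genes, 43 were tested. Under siFOXA1.1, 25 were lower there (58.1%) against 17.3%, and under siFOXA1.2, 9 (20.9%) against 0.889%, with none higher in either. The medians in RT112 were 0.77 and 0.23 for the higher genes and -0.88 and -0.41 for the lower genes, against 0.0031 and 0.015 over all genes. The part that the higher counts of the 156 genes have in this was not tested.

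**Figure D5:**
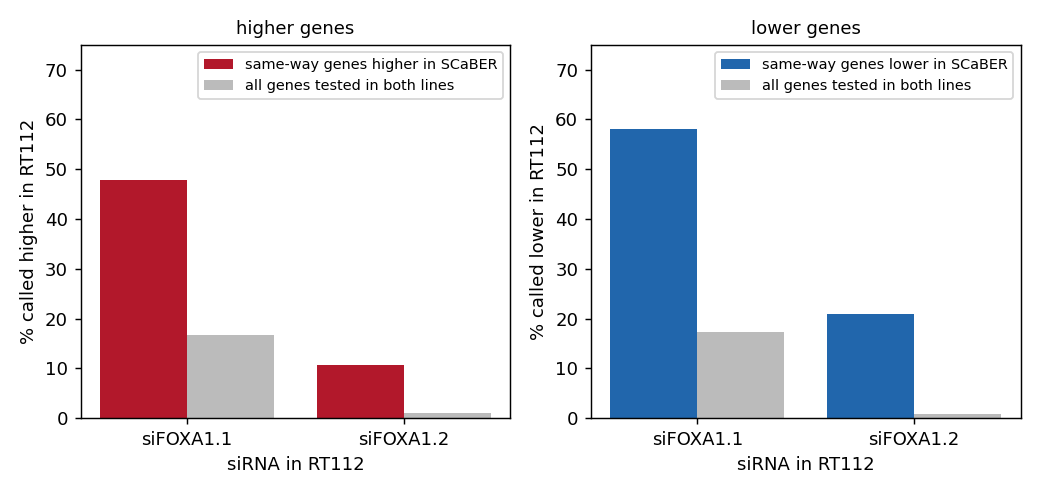
Percentage of genes called in RT112 at an adjusted p under 0.05 (vertical axes) under each siRNA (horizontal axes), for the SCaBER genes higher (left) or lower (right) with both siRNAs and for all 10685 genes tested in both lines (grey). Coloured bars stand at 47.9% and 10.6% for the higher genes and 58.1% and 20.9% for the lower genes, above the grey bars at 16.7%, 1.12%, 17.3% and 0.889%.

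Past the adjusted threshold with both siRNAs in RT112 were 7 of the 94 higher genes (7.45%, against 0.515% of all) and 6 of the 43 lower genes (14.0%, against 0.356%). Among the higher ones were BACE2, CALU, CTSC, FAM49B, RAB7A and SON, and the lower ones were H2AFZ, HMGB1, NFE2L2, PABPC4, PUM3 and TMEM97, a set singled out after its values were seen. CALU in RT112 measured 112 and 105 normalised CPM in siControl.1, 115 and 113 in siControl.2, 489 and 523 in siFOXA1.1, and 310 and 311 in siFOXA1.2. Its groups did not overlap there either, with log2 fold changes of 2.19 and 1.48. PABPC4 measured 602 and 672 in siControl.1, 499 and 529 in siControl.2, 128 and 161 in siFOXA1.1, and 251 and 296 in siFOXA1.2. All 4 siFOXA1 libraries were again below the controls, at -1.99 and -1.07.

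RAB7A, the GTPase of late endosomes, measured 266 and 283 in siControl.1, 192 and 174 in siControl.2, 439.6 and 507 in siFOXA1.1, and 382 and 392 in siFOXA1.2 in SCaBER, and was 1.25 and 0.84 higher in RT112 on the log2 scale. Its controls in SCaBER differed by 0.58, siControl.1 the higher (edgeR, unadjusted p = 0.00759). Those of BACE2 differed there by 1.06 in the same direction (edgeR, unadjusted p = 0.00489). H2AFZ, the histone variant H2A.Z, measured 580.1 to 724 in siControl, 315 and 338 in siFOXA1.1, and 419.9 and 410.0 in siFOXA1.2 in SCaBER, with RT112 log2 fold changes of -0.92 and -0.65. NFE2L2, the antioxidant factor NRF2, was among the lower genes at -0.62 and -0.53 in SCaBER and -0.42 and -0.59 in RT112. Of the other genes past the adjusted threshold under each siRNA in SCaBER, CLDN1 passed in RT112 with siFOXA1.1 alone (0.93, adjusted p = 0.000409, and 0.53, adjusted p = 0.156, with siFOXA1.2). TINAGL1 and HMGN3 passed there with siFOXA1.2 alone, at 0.99 (adjusted p = 2.8e-05) and -1.90 (adjusted p = 0.000158). The RT112 values under siFOXA1.1 were 0.27 (adjusted p = 0.0624) and -0.45 (adjusted p = 0.127). The difference between the siRNAs in RT112 is not described for these genes.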

How the data were processed

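RNA from the 8 SCaBER libraries was read with a 3' mRNA kit that counts transcript ends. The authors deposited raw counts for 58721 genes and TPM values. Their pipeline settings, deposited alongside, list TrimGalore 0.6.2 (quality at least 20, length at least 10), then STAR 2.6.1a with hg38 and GENCODE 29, whereas the study's methods section gives hg19. The authors' count table was fitted here with edgeR 4.0.16 in R 4.3.3 (TMM, filterByExpr, quasi-likelihood F test, Benjamini-Hochberg adjustment), once with 2 groups and once with 1 mean per siRNA. Counts per library (4528513 to 6914951) put the floor of 3 counts at 0.429 to 0.658 normalised CPM, counting error alone. The deposited TPM values entered an alternative with limma 3.58.1 (pseudocount 1), and DESeq2 1.42.0 another. RT112 was fitted alone, and with SCaBER for the difference between the lines.

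The labels call the replicate number an experiment batch, so it pairs libraries. Replicate differences of the 4 siRNAs correlated across genes at 0.0187 to 0.200. Known changes in simulated counts were recovered. That recovery gives no error rate for the pooled comparison or for the rule on genes moved the same way. In these libraries siRNAs of the same target also differed from each other, which limits what simulated counts can show about them. Genes were named by rule: FOXA1, the gene called in the pooled comparison, genes called under siFOXA1.2, the 12 leading genes per direction with at least 20 counts, list members moved by both siRNAs, and up to 4 leading members per list. The genes, lists and rules were chosen with earlier results of these data known. A few genes that the rule names are not reported here.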

Additional observations from a re-analysis of the deposited data

Results flagged for a closer look

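In the 16-library fit, the mean change of both siRNAs differed between SCaBER and RT112 (edgeR interaction, adjusted p) for TMEM154, 2.62 higher in SCaBER on the log2 scale (SE 0.47, adjusted p = 0.0116), for CDKN1A, 1.17 higher (SE 0.24, adjusted p = 0.0335), and for FADS1, a fatty acid desaturase, 1.08 higher (SE 0.24, adjusted p = 0.0458). FADS1 fell in SCaBER by 0.96 in that fit, so its value there is a smaller fall than in RT112. In the fits of each line alone, FADS1 changed by -1.87 under siFOXA1.1 and -0.04 under siFOXA1.2 in SCaBER (difference between the siRNAs, adjusted p = 0.000187), and by -3.70 and -0.35 in RT112. Of the 156 genes moved the same way, 9 differed between the lines, as did 67 of 13701 genes tested. The 156, TMEM154 and CDKN1A among them, were chosen by their change in SCaBER, and FADS1 was named by its change there. The difference between the lines uses those same SCaBER values, so the choice itself favours a difference, and the 2 counts cannot be compared.

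One library of a group of 4 stood apart from the others, by its gap divided by the group's range, in 12 of 152 gene and library measures, where chance gives about 7.6. In siControl, siControl.1 replicate 2 was highest for ERP27 (0.861), AFMID (0.855), PYCARD (0.837), CKS2 (0.836) and ORC6 (0.847). siControl.1 replicate 1 was highest for IFI6 (0.876) and lowest for BIRC5 (0.891). siControl.2 replicate 2 was highest for NRN1 (1) and AC022107.1 (0.947), and siControl.2 replicate 1 for CAVIN2 (0.849). In siFOXA1, siFOXA1.1 replicate 2 was highest for TMEM154 (0.938) and PDIA4 (0.900).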

How the results depend on the processing

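The count of 156 genes moved the same way was 158 with RLE size factors (155 shared), 149 with library totals alone (143 shared), 153 without the filter (135 shared), 170 with the replicate block (150 shared), 171 with DESeq2 (141 shared) and 191 with all 16 libraries (130 shared). On TPM it was 169 (112 shared), split into 87 higher and 82 lower in place of 110 and 46. An unadjusted p under 0.01 for each siRNA left 50, an adjusted p under 0.05 left 5, disjoint controls 76 (69 shared), exchanged disjoint controls 78 (67 shared), and leaving out 1 library 101 to 216. The lowest, without siFOXA1.2 replicate 2, shared 62.

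The pooled count of 1 became 213 without the filter, 0 with the replicate block, 36 with DESeq2, 2 on TPM, 745 with the siFOXA1.1 libraries alone, 3 with the siFOXA1.2 libraries alone, and 0 to 3 leaving out 1 library. The mean of both siRNAs, 271, became 585 without the filter, 487 with the replicate block, 561 with DESeq2, 71 on TPM, 506 with all 16 libraries, and 24 (without siFOXA1.2 replicate 2) to 657 (without siFOXA1.1 replicate 1) leaving out 1. It was 100 without siControl.1 replicate 2, 25 and 42 without siControl.2 replicate 1 and 2, and 40 without siFOXA1.2 replicate 1. siFOXA1.1, 1102, ran from 526 to 1371 leaving out 1, lowest without siControl.2 replicate 1. siFOXA1.2, 5, became 42 without the filter, 38 with DESeq2, 1 on TPM, 14 with all 16 libraries and 0 to 21 leaving out 1. The controls' 8 became 91 without the filter, 35 with the replicate block, 70 with DESeq2, 0 on TPM, 49 with all 16 libraries, and 0 to 60 leaving out 1. The cause of these changes was not tested.

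With the siFOXA1.2 libraries alone, the change reversed for CCNE2 (0.16), CDKN3 (0.0084), IFI44L (-0.10), IFI6 (-0.46), MKI67 (0.15) and MX2 (-1.37) on the log2 scale. FOXA1 kept its direction and its side of the threshold under every alternative run, at -1.50 to -3.05 leaving out 1 library and -0.60 on TPM. The replicate block left the counts for siFOXA1.1, for siFOXA1.2 and for genes moved the same way within 1.5 times. It changed the mean of both siRNAs from 271 to 487, the controls from 8 to 35 and the pooled count from 1 to 0. Genes under about 20 counts are limited by depth.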

Other observations

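Further genes among the 156, chosen after their values were seen, are known for secreted signals, nutrient transport and survival. HBEGF, a ligand of the EGF receptor, measured 41.5 and 57.9 normalised CPM in siControl.1, 44.4 and 49.1 in siControl.2, 85.2 and 76.2 in siFOXA1.1, and 94.5 and 117 in siFOXA1.2. It was higher in all 4 siFOXA1 libraries, with a log2 fold change for the mean of both siRNAs of 0.94 (SE 0.19, adjusted p = 0.018). SLC7A5, the light chain of a transporter of large amino acids, measured 134 to 222 in siControl and 86.3 to 104 in siFOXA1. MCL1, an anti-apoptotic protein, measured 202 to 313 in siControl and 359 to 482 in siFOXA1.

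NDRG1, a hypoxia-induced gene outside the 156, measured 110.3 to 167 in siControl, 194 and 159 in siFOXA1.1, and 304 and 260.1 in siFOXA1.2. Its log2 fold change was 1.04 under siFOXA1.2 and 0.36 under siFOXA1.1, and the difference between the siRNAs did not pass (adjusted p = 0.135).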
